A study of Homo sapiens with 4 samples.

Results

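The discs large (DLG) genes were described in human osteoblasts during mineralization, with weight on the isoforms of DLG1, the gene whose transcript gives rise to the circular RNA that the study followed. Members were chosen by official symbol in the table of mRNA expression. The rows of DLG1, DLG2, DLG3, DLG4 and DLG5 were kept, which gave 5 of 19610 gene symbols and 51 of 79798 transcripts. DLG1 had 17 of these transcripts. MPP2 and MPP3, which carry DLG2 and DLG3 as older symbols in RefSeq, are other genes and were not members.

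The study followed hFOB 1.19 cells, an established line of human fetal osteoblasts immortalized with a temperature-sensitive viral antigen, as they matured. RNA was sequenced from 4 samples, 1 each for the undifferentiated control on day 0 and for cells undergoing mineralization on days 3, 6 and 9. In the study's methods these cells were grown at a lower temperature before differentiation and at a raised one from day 0 onward, so time in differentiation and culture temperature cannot be told apart in any comparison with day 0. All 4 samples came from the same line, which limits what they say about osteoblasts in general. Expression is given as FPKM, the number of fragments scaled to transcript length and to library size, estimated for each annotated transcript and here summed per gene. With 1 library per time point there was no replicate error, no test was made, and no p-value or standard deviation can be given. FPKM carry no read count, so the depth behind a value and its counting interval are unknown. Whether the FPKM come from the libraries used for circular RNAs is not clear from the labels, and any reads of the DLG1 circular RNA within the FPKM cannot be told apart from those of linear DLG1 transcripts that share its exons.

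DLG proteins are membrane-associated guanylate kinase (MAGUK) scaffolds. They hold PDZ domains that bind the tails of membrane proteins, an SH3 domain, and a guanylate kinase domain that has lost its enzyme activity and binds other proteins. In epithelia, DLG acts with SCRIB and the LLGL proteins in the Scribble module, which sets the basolateral side of the cell, while at synapses the DLG proteins anchor glutamate receptors and ion channels. A scaffold of this kind is encoded by many spliced transcripts, and DLG1 is also known as SAP97.

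The promoter of DLG1 is shown first because an antisense gene, DLG1-AS1, starts beside it and was measured in the same libraries. Promoter windows from RefSeq (GRCh38.p14), each spanning 250 bases before to 50 bases after a transcription start, were found for 4 of the 5 members. DLG1 had 5 windows, all on the minus strand of chromosome 3, and DLG1-AS1 had 1 on the plus strand. The DLG1 start at position 197298135 and the DLG1-AS1 start at position 197298247 face away from each other and lie 112 bases apart. Of the other DLG1 starts, 3 lie beyond the DLG1-AS1 start, at 197298576, 197298612 and 197299321, so that transcription from them runs across it, and the remaining start lies far downstream at 197183872. The short pieces below are written 5′ to 3′ on the strand of the named gene, and capitals mark a motif on either strand. The CCAAT box was searched as CCAAT on both strands and reads as ATTGG on the other one. The GC box was searched as GGGCGG and reads as CCGCCC on the other strand. The TATA box was searched as TATAAA on both strands.
DLG1, chr3:197298167-197298196, minus strand: ctcctcacttcccATTGGctgagagcgccg
DLG1-AS1, chr3:197298166-197298195, plus strand: ccggcgctctcagCCAATgggaagtgagga
DLG1, outermost start, chr3:197299368-197299397, minus strand: ttccctttggtagCCAATggatacggcctc
DLG1, GC boxes, chr3:197298660-197298689, minus strand: cccaggccCCGCCCtccCCGCCCcctggga

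The first pair of pieces shows opposite strands of almost the same stretch, slightly offset as their coordinates give. This CCAAT box lies between both starts, centred 46 bases before the DLG1 start and 66 bases before that of DLG1-AS1. The outermost DLG1 start has its own CCAAT box, centred 61 bases before it, and the last piece holds 2 GC boxes that lie in the windows of both neighbouring starts, centred 62 bases before 197298612 and 98 bases before 197298576. Of the 5 DLG1 windows, 2 held a CCAAT box, 3 a GC box and 0 a TATA box, where 2 of the 3 windows with a GC box overlap and count the same boxes. Over all 35116 RefSeq windows of the same length, 34.6% held a CCAAT box, 45.0% a GC box and 11.5% a TATA box. A match describes the letters of a window and is not a measured binding site, and the windows were not paired with the Ensembl transcripts of the expression table.

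DLG1 was the most abundant member in every library. Its summed level (ENSG00000075711) was 75.4 FPKM on day 0, 124 FPKM on day 3, 151 FPKM on day 6 and 131 FPKM on day 9. All 3 later libraries were above day 0, and day 6 was the highest. As FPKM ratios to day 0, these levels were 1.65-fold, 2.003-fold and 1.74-fold. On the scale used for every gene, the log2 ratio of FPKM with 1 added, DLG1 was higher than on day 0 by 0.71, 0.99 and 0.79. The limit for calling a gene higher or lower was a log2 ratio of at least 1 or at most -1 with a summed level of at least 1 FPKM in any library, so DLG1 on day 6 lay just under it. These ratios placed DLG1 at the 86.2, 90.9 and 87.0 percentiles of the 12859 genes that reached the minimum. Its level placed it between the 90.0 and 96.1 percentiles of the same genes.

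DLG5, a large and more distant family member linked to cell polarity and adhesion, was next in abundance. Its level (ENSG00000151208) was 22.1 FPKM on day 0, 24.7 FPKM on day 3, 23.4 FPKM on day 6 and 22.3 FPKM on day 9. The 4 libraries lay close together, with log2 ratios to day 0 of 0.16, 0.08 and 0.01, the last of which was -0.02 when only the leading transcript was read. DLG4, also called PSD-95 and best known as a scaffold of the excitatory synapse, came after DLG5. Its level (ENSG00000132535) was 9.12 FPKM on day 0, 12.0 FPKM on day 3, 13.3 FPKM on day 6 and 10.54 FPKM on day 9. As with DLG1, day 6 was the highest library, and the log2 ratios to day 0 were 0.37, 0.50 and 0.19.

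DLG3, also called SAP102, a scaffold of developing synapses, was measured at a low level. Its level (ENSG00000082458) was 2.27 FPKM on day 0, 2.20 FPKM on day 3, 2.08 FPKM on day 6 and 1.85 FPKM on day 9. Its log2 ratios to day 0 were -0.03, -0.08 and -0.20, and the day 3 value turned to 0.04 when the libraries were rescaled to a common median. DLG2, also called PSD-93, a neuronal scaffold, did not reach 1 FPKM in any library. Its level (ENSG00000150672) was 0.0853 FPKM on day 0, 0.113 FPKM on day 3, 0.0546 FPKM on day 6 and 0.0625 FPKM on day 9. Of its 20 transcripts, 12 were listed at 0 in all 4 libraries and 0 were above 0 in all 4, so no ratio is read from them.

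**Figure D1:**
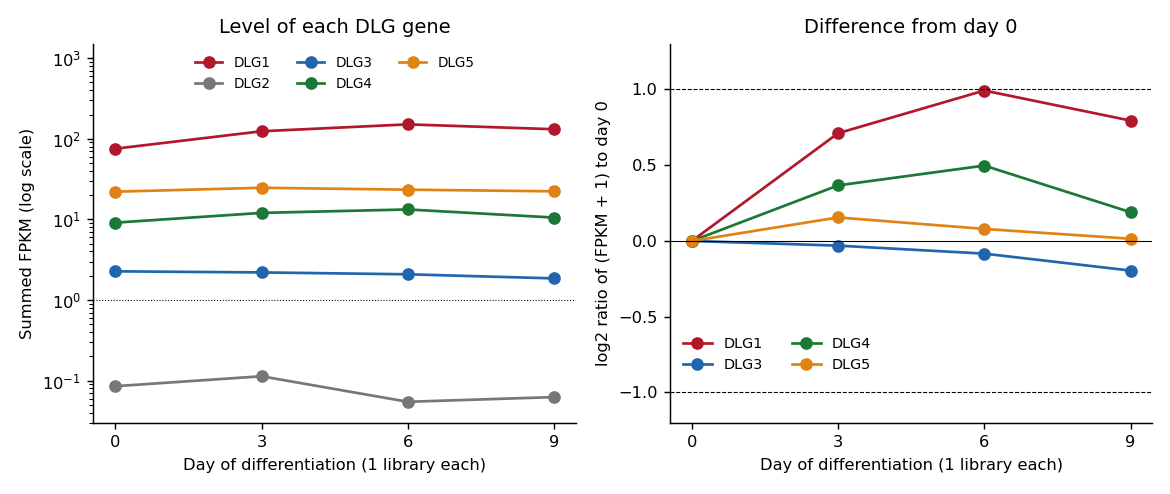
The left panel plots the summed FPKM of each DLG gene on a log axis against the day of differentiation, and the right panel plots the log2 ratio of FPKM with 1 added to day 0, with 1 library per point. The dotted line marks 1 FPKM and the dashed lines the limits at 1 and -1. DLG1 runs from 75.4 to 151 FPKM and comes to 0.99 on day 6, DLG3, DLG4 and DLG5 stay between -0.20 and 0.50, and DLG2 lies under 1 FPKM throughout.

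The order of levels, DLG1, DLG5, DLG4, DLG3 and DLG2, was the same in all 4 libraries. The ranges over the libraries did not overlap between neighbours in this order: the lowest DLG1 value was 75.4 FPKM against a highest DLG5 value of 24.7 FPKM, and the lowest DLG4 value of 9.12 FPKM lay above the highest DLG3 value of 2.27 FPKM. The 5 genes together came to 109 FPKM on day 0, 163 FPKM on day 3, 190 FPKM on day 6 and 166 FPKM on day 9. DLG1 made up 69.2%, 76.1%, 79.6% and 79.1% of this sum. The share of DLG5 was 20.3% on day 0 and 15.1%, 12.3% and 13.4% later, at nearly the same FPKM.

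Of the 4 members that reached the minimum, 0 were called higher and 0 lower on any day. On day 3, 8.13% of all 12859 genes were called higher and 5.3% lower. The shares were 9.01% and 6.42% on day 6, and 9.6% and 6.52% on day 9. For calls on all 3 days in the same direction they were 5.93% higher and 3.45% lower. At a limit of 1.5-fold, DLG1 alone among the members was higher on each of the 3 days, beside 17.4%, 18% and 18.1% of all genes on days 3, 6 and 9 and 12.6% on all 3 days. The median log2 ratio of all genes to day 0 was -0.08, -0.08 and -0.09, so the DLG1 ratios were larger relative to the middle gene than to 0. The 3 comparisons share the single day 0 library, and an error in it would move all of them together.

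**Figure D2:**
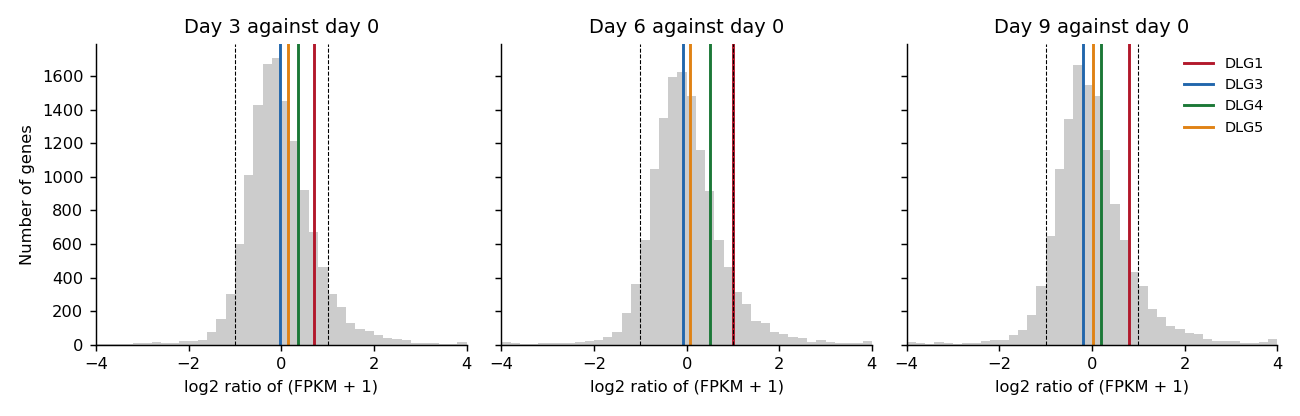
Grey bars give the number of genes at each log2 ratio of FPKM with 1 added to day 0, for the 12859 genes that reached 1 FPKM in any library, with ratios beyond 4 in either direction counted in the outermost bars. Coloured lines mark DLG1, DLG3, DLG4 and DLG5 and dashed lines the limits at 1 and -1. DLG1 stands right of the bulk at 0.71, 0.99 and 0.79, while DLG3 and DLG5 stand near the middle.

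Between neighbouring later libraries DLG1 moved less than against day 0. From day 3 to day 6 the log2 ratio of DLG1 was 0.28, at the 89.7 percentile of all genes, and from day 6 to day 9 it was -0.20, at the 15.9 percentile. For DLG4 the step from day 6 to day 9 was -0.31, at the 8.26 percentile, which was larger in size than its ratio of day 9 to day 0 (0.19). DLG3 stepped by -0.05 and -0.11 and DLG5 by -0.08 and -0.06. The median absolute log2 ratio over all genes was 0.14 and 0.13 for these steps, against 0.43, 0.45 and 0.45 for the comparisons with day 0. Of the 4 members, 0 were called in either step. From day 3 to day 6, 0.607% of all genes were called higher and 0.443% lower, and from day 6 to day 9, 0.381% higher and 0.163% lower.

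DLG1 was spread over many transcripts. Of its 17 annotated transcripts, 16 were above 0 in at least 1 library, 12 in all 4, and 1 (ENST00000447466) was listed at 0 throughout. The number above 0 was 13, 12, 14 and 15 on days 0, 3, 6 and 9. The 3 leading transcripts together held 57.4%, 61.4%, 59.8% and 57.2% of the summed level. The effective number of transcripts, the inverse of the summed squared shares, was 6.63, 6.40, 6.60 and 6.45. FPKM of overlapping isoforms are estimates that split shared reads, so a transcript's value depends on that of its neighbours and an exact 0 can be a failed estimate.

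ENST00000419553 led in every library. It was at 18.3 FPKM on day 0, 33.4 FPKM on day 3, 42.4 FPKM on day 6 and 41.2 FPKM on day 9. Its share of DLG1 was 24.3%, 26.9%, 28.1% and 31.4%, the highest on day 9, and its log2 ratios to day 0 were 0.84, 1.17 and 1.13. Of the 75.6 FPKM by which DLG1 was higher on day 6 than on day 0, this transcript held 32.0%. When it was left out of the sum, DLG1 was higher than on day 0 by 0.66, 0.92 and 0.65 on the log2 scale.

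ENST00000436682 was second on days 0, 3 and 6. It was at 13.7, 24.3, 28.5 and 15.1 FPKM on days 0, 3, 6 and 9. Its level on day 9 was thus near that of day 0, with log2 ratios to day 0 of 0.78, 1.002 and 0.13, and its share was 18.2%, 19.6%, 18.9% and 11.5%. Its difference from day 6 to day 9, -0.87 on the log2 scale, held 68.6% of the difference in summed DLG1 between these libraries. ENST00000450955 was at 11.2, 18.5, 19.2 and 18.8 FPKM and took second place on day 9 with 14.3% of DLG1. ENST00000346964 was at 10.3, 12.3, 13.1 and 10.6 FPKM, and its share was 13.7% on day 0 and 9.90%, 8.67% and 8.04% later.

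A set of lower transcripts was higher than on day 0 past the limit on all 3 days. ENST00000456699 was at 0.362 FPKM on day 0 and 5.62, 6.77 and 4.66 FPKM later, with log2 ratios of 2.28, 2.51 and 2.06. ENST00000422288 was at 0.332 FPKM on day 0 and 3.30, 5.02 and 7.36 FPKM later, with log2 ratios of 1.69, 2.18 and 2.65. Both were nearly undetected on day 0, and the second was highest on day 9, when summed DLG1 was already below its day 6 level. ENST00000453607 was at 0.769 FPKM on day 0 and 4.53, 7.21 and 3.68 FPKM later, with log2 ratios of 1.64, 2.21 and 1.40. ENST00000357674 started higher, at 3.79 FPKM on day 0 against 9.62, 9.66 and 11.1 FPKM later, with log2 ratios of 1.15, 1.15 and 1.34.

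ENST00000392380 went the other way. It was at 7.59 FPKM on day 0 and at 0.918, 4.06 and 2.69 FPKM on days 3, 6 and 9, all below day 0. Its log2 ratios were -2.16, -0.76 and -1.22, and its share was 10.1% on day 0 and 0.740%, 2.69% and 2.05% later. The difference between days 3 and 6, 1.40 on the log2 scale, was the largest step of any DLG1 transcript between neighbouring later libraries.

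The rest moved less or were seen late. ENST00000412364 was at 3.09, 5.29, 4.30 and 4.40 FPKM, ENST00000419354 at 3.997, 2.68, 5.21 and 5.60 FPKM, and ENST00000452595 at 1.76, 3.62, 4.40 and 2.41 FPKM on days 0, 3, 6 and 9. ENST00000434148 was listed at 0 on days 0 and 3 and was at 0.817 FPKM on day 6 and 2.94 FPKM on day 9. ENST00000448528 was listed at 0 until day 6 and was at 0.532 FPKM on day 9. The other 2 transcripts that were above 0 in any library stayed under 0.5 FPKM.

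**Figure D3:**
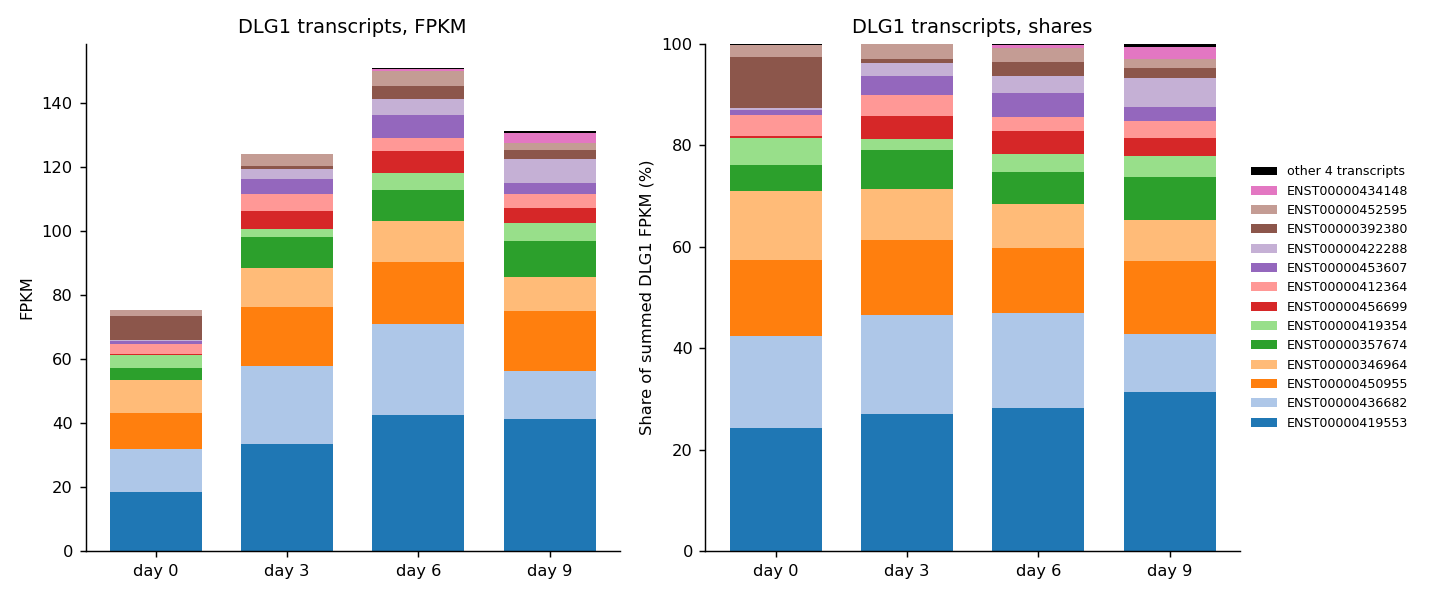
Stacked bars give the FPKM of each DLG1 transcript (left) and its share of the summed DLG1 FPKM in percent (right) in each of the 4 libraries, with the 4 transcripts that stayed under 1 FPKM drawn together in black. The leading transcript at the bottom of each bar takes 24.3% on day 0 and 31.4% on day 9, the second narrows to 11.5% on day 9, and the brown ENST00000392380 takes 10.1% on day 0 and 0.740% on day 3.

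Of the 17 DLG1 transcripts, 13 reached 1 FPKM in any library, and calls were made on these with the same limit as for genes. On day 3, 4 were called higher and 1 lower, beside 9.46% and 10.6% of the 37418 transcripts of all genes that reached the minimum. On day 6, 6 were called higher and 0 lower, beside 10.4% and 11.4% of all transcripts. On day 9, 6 were called higher and 1 lower, beside 10.8% and 11%. Past the limit on all 3 days were 4 higher and 0 lower, beside 4.99% and 5.25%. Of these 4, ENST00000456699, ENST00000422288 and ENST00000453607 were under 1 FPKM on day 0 and reached the minimum only in later libraries, where they were high. ENST00000434148 reached it only on day 9. The filter thus favours higher calls among them, and the counts are no support for a rise. From day 3 to day 6, 1 was called higher (ENST00000392380) and 0 lower, beside 3.74% and 3.41%, and from day 6 to day 9, 1 higher (ENST00000434148) and 0 lower, beside 3.37% and 2.92%. Transcripts of 1 gene share reads and are not independent, so these counts describe how the DLG1 sum was made up.

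The change in isoform makeup was measured as an isoform distance, which is 0.5 times the summed absolute difference of isoform shares between 2 libraries, in percentage points. For DLG1 it was 16.4 points between days 0 and 3, 17.8 points between days 0 and 6 and 23.4 points between days 0 and 9. Over the genes with at least 5 transcripts and at least 1 FPKM in both libraries the medians were 14.9, 15.4 and 15.04 points, so DLG1 stood at the 55.4, 58.2 and 75.1 percentiles of 4895, 4882 and 4873 genes. The makeup of DLG1 thus differed from day 0 about as much as that of the middle gene on days 3 and 6, and more on day 9. Between days 3 and 6 the distance was 6.90 points, at the 29.1 percentile, and between days 6 and 9 it was 12.6 points, at the 60.3 percentile.

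The leading transcript of DLG1 was the same in all 5 comparisons. Over the background genes it differed in 19.9% between days 0 and 3 and in 21.7% between day 0 and either of days 6 and 9. The shares were 15.4% between days 3 and 6 and 14.8% between days 6 and 9.

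**Figure D4:**
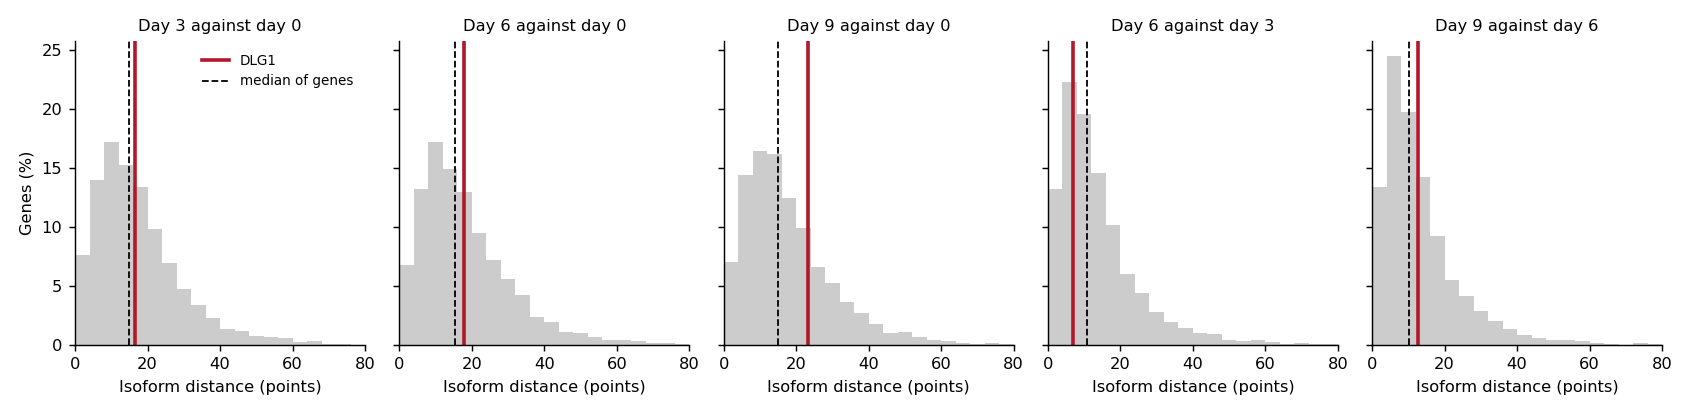
Grey bars give the percentage of genes at each isoform distance in percentage points for the 5 pairs of libraries, over genes with at least 5 transcripts and at least 1 FPKM in both, with the few genes beyond 80 points not drawn. The red line marks DLG1 and the dashed line the median of genes. DLG1 lies near the median at 16.4 and 17.8 points on days 3 and 6, to its right at 23.4 points on day 9, and to its left at 6.90 points between days 3 and 6.

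The other members had simpler makeups. DLG5 was carried by ENST00000372391, at 21.8, 23.8, 22.8 and 21.4 FPKM on days 0, 3, 6 and 9, which was between 96.0% and 98.7% of the gene. Its other transcript, ENST00000424842, was at 0.289, 0.871, 0.572 and 0.889 FPKM.

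DLG4 was led by ENST00000399506 in every library, at 4.91, 5.38, 6.14 and 5.44 FPKM. ENST00000302955 was second, at 2.27, 4.39, 5.01 and 3.99 FPKM, and its share was 24.9% on day 0 and between 36.5% and 37.9% later. Of the 2.93 FPKM by which DLG4 was higher on day 3, this second transcript held 72.5%. Its log2 ratios to day 0 of 0.72, 0.88 and 0.61 stayed under the limit. ENST00000447163, ENST00000399510 and ENST00000493294 also reached 0.5 FPKM in some library, with highest values of 0.864, 0.629 and 0.705 FPKM.

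DLG3 was shared by a pair of transcripts. ENST00000374355 was at 1.33, 1.12, 1.09 and 0.685 FPKM, and ENST00000542398 at 0.942, 1.07, 0.965 and 1.15 FPKM on days 0, 3, 6 and 9. The first led on days 0, 3 and 6 and the second on day 9, with 61.9% of the gene. At about 1 FPKM each, the order of these transcripts rests on small differences of estimates.

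Antisense genes were measured in a separate table of long noncoding RNAs. DLG1-AS1 (ENSG00000227375), the gene that starts beside DLG1, was at 0.227 FPKM on day 0, 0.449 FPKM on day 3, 0.837 FPKM on day 6 and 0.650 FPKM on day 9. It was under 1 FPKM in every library, and like DLG1 it was highest on day 6 and above day 0 in the 3 later libraries. DLG5-AS1 (ENSG00000233871) was at 1.10 FPKM on day 0 and 0.402 FPKM on day 3, was listed at 0 on day 6 and was at 0.168 FPKM on day 9. The library kit marks strand, but whether the counting used it is not given in the sources used here. Where it did not, reads of DLG1 and DLG1-AS1 over shared bases cannot be told apart.

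The 3 genes whose profile over the 4 libraries was most like that of DLG1 were RNF144A, DOCK9 and ZNF430. Likeness was the largest difference in log2 FPKM with 1 added, after centring each gene on its mean over the libraries, among 11583 genes with at least 1 FPKM in every library. RNF144A, a RING-type ubiquitin ligase, was at 2.41, 4.56, 5.80 and 5.04 FPKM and differed from DLG1 by at most 0.0234. DOCK9, an activator of the small GTPase CDC42, was at 22.0, 35.7, 43.0 and 38.2 FPKM and differed by at most 0.0312. ZNF430, a zinc finger gene, was at 6.86, 12.3, 15.1 and 13.1 FPKM and differed by at most 0.0323. With only 4 libraries such likeness carries little weight. At a looser limit of 0.2, 428 of the 11583 genes lay near the DLG1 profile.

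Partners of the DLG proteins were described through 5 lists with 67 genes in all, of which 55 reached the minimum. On days 3, 6 and 9, 7, 8 and 6 of these 55 were called higher and 1, 1 and 2 lower, beside the shares of all genes given above. With 0.1 added in place of 1 these counts were 11, 11 and 9 higher and 2, 3 and 2 lower. The shares of all genes were taken with 1 added only, so these last counts have no share to be set beside. With 1 added, the median log2 ratios of the 55 genes were 0.29, 0.23 and 0.22, against -0.08, -0.08 and -0.09 over all genes. On all 3 days 5 genes were higher and 1 was lower, beside 5.93% and 3.45% of all genes.

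The Scribble module and related LAP proteins, with which DLG1 acts in polarity, held 5 genes at the minimum, and 0 were called on any day. SCRIB, the scaffold that names the module, was at 37.8, 51.0, 59.8 and 55.9 FPKM on days 0, 3, 6 and 9. Like DLG1 it was highest on day 6, with log2 ratios to day 0 of 0.42, 0.65 and 0.55. LLGL1, a lethal giant larvae homologue of the module, was at 21.7, 18.8, 17.5 and 16.1 FPKM, each later library below day 0. LLGL2 was at 1.26, 1.94, 1.01 and 0.646 FPKM.

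The Crumbs and PAR complexes mark the apical side opposed to DLG. Of their 10 genes, 2 were called higher on all 3 days, beside 5.93% of all genes. PARD6G, a PAR6 adaptor, was at 3.78 FPKM on day 0 and 20.7, 20.0 and 19.1 FPKM later, with log2 ratios of 2.18, 2.13 and 2.07. PRKCZ, an atypical protein kinase C, was at 6.04 FPKM on day 0 and 24.5, 16.2 and 15.4 FPKM later, with log2 ratios of 1.86, 1.29 and 1.22.

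Among 15 other MAGUK proteins and LIN7 adaptors, CASK and LIN7A were called higher on all 3 days, beside 5.93% of all genes. CASK, a MAGUK that can pair with DLG1 through L27 domains, was at 9.76, 25.004, 35.1 and 36.5 FPKM on days 0, 3, 6 and 9. Its log2 ratios of 1.27, 1.75 and 1.801 were larger than those of DLG1 on each day, and it was highest on day 9. LIN7A, a small adaptor that joins CASK, was at 0.988 FPKM on day 0 and 5.43, 5.49 and 5.80 FPKM later, and reached the minimum only in those later libraries. MPP4 was also called higher on days 6 and 9 (1.35 and 1.04) and MPP3 lower on day 9 (-1.11), both named after their values were seen. The median of the list was 0.16, 0.09 and 0.10.

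Of 14 partners of the guanylate kinase domain or of SAP97, 1 was called, lower on all 3 days as were 3.45% of all genes. This was DLGAP5, which is named for association with DLG but is known as a factor of the mitotic spindle, at 83.9 FPKM on day 0 and 15.3, 14.1 and 15.2 FPKM later, with log2 ratios of -2.38, -2.49 and -2.39. The median of the list was 0.03, 0.05 and 0.03. Of 11 postsynaptic density partners, 3, 3 and 1 were called higher on days 3, 6 and 9, beside 8.13%, 9.01% and 9.6% of all genes. The list medians were 0.62, 0.60 and 0.23. SHANK3, a scaffold that binds the DLG4 complex through DLGAP proteins, was called on all 3 days, at 1.58 FPKM on day 0 and 5.11, 5.34 and 4.97 FPKM later. The other calls were GRIA1 and SHANK2 on days 3 and 6, named after their values were seen, with log2 ratios of 1.75 and 1.15 for GRIA1 and 1.83 and 1.03 for SHANK2. GRIA1 was at 0.140 FPKM on day 0 and reached the minimum only on days 3 and 6.

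**Figure D5:**
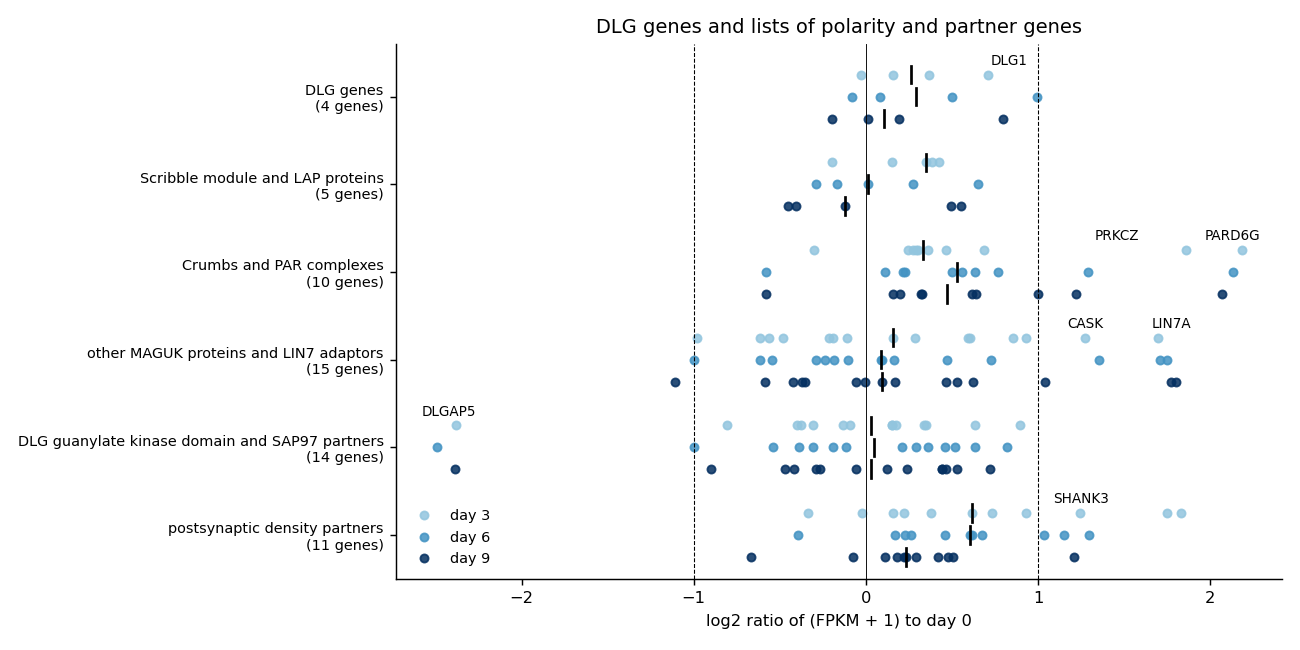
Each point is the log2 ratio of FPKM with 1 added to day 0 of 1 gene that reached 1 FPKM in any library, for the 4 DLG genes and the 5 lists, with a row for each of days 3, 6 and 9. Black ticks are medians and dashed lines the limits at 1 and -1. Labels name DLG1 and the genes past the limit on all 3 days, with PARD6G farthest to the right at 2.18 on day 3 and DLGAP5 farthest to the left at -2.49 on day 6.

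Marker genes were read beside these results. Of 9 osteoblast markers, 6 reached 1 FPKM, and 4, 5 and 4 were called higher on days 3, 6 and 9, where 8.13%, 9.01% and 9.6% of all genes were. Their median log2 ratios were 1.52, 1.53 and 1.598, and the list summed to 2024, 4332, 3721 and 3013 FPKM on days 0, 3, 6 and 9. These sums were mostly COL1A1, SPARC and COL1A2. SPARC was called on no day (0.40, 0.28 and 0.20). COL1A1 was called higher on days 3 and 6 but not on day 9 (0.56), and COL1A2 on all 3 days. RUNX2, the master transcription factor of osteoblasts, was at 7.37, 26.2, 19.3 and 18.2 FPKM, and ALPL, the alkaline phosphatase of mineralizing cells, at 0.294, 4.32, 4.35 and 4.18 FPKM. ALPL and SPP1 (0.794 FPKM on day 0) reached the minimum only through later libraries. The osteoblast calls and medians rest in part on that filter and are no support for maturation. SP7, BGLAP and IBSP, the rest of the list that fell short of the minimum, stayed under 1 FPKM, with BGLAP and IBSP listed at 0 on day 0. Of 6 neuronal markers, 5 reached the minimum and 2, 3 and 3 were called higher on days 3, 6 and 9, beside the same shares of all genes, with medians of 0.96, 1.75 and 1.75. SNAP25 was at 0.424 FPKM on day 0 and 8.05 FPKM on day 9, and NEFL and MAP2 were also called higher. SNAP25, NEFL and MAP2 were each under 1 FPKM on day 0 and reached the minimum only through later libraries. Their calls and the list medians rest in part on that filter and are no support for a neuronal trait. SYN1, which reached the minimum on day 0, was at 1.91, 2.03, 1.45 and 1.46 FPKM on days 0, 3, 6 and 9. The summed level of the neuronal list ranged from 34.3 to 38.0 FPKM and was mostly TUBB3, which was at 31.1 FPKM on day 0 and 23.0, 17.9 and 18.9 FPKM later. RBFOX3, which defines mature neurons, was under 1 FPKM in every library. Of 6 epithelial markers, 4 reached the minimum, and KRT8 and KRT18 were called lower on days 6 and 9, where 6.42% and 6.52% of all genes were. The list sums of 914, 480, 368 and 379 FPKM were mostly KRT8 and KRT18, at 517 and 394 FPKM on day 0. CLDN4 went the other way, with log2 ratios to day 0 of 0.48, 0.19 and 0.18, and those of KRT19 were 0.69, -0.26 and -0.05. KRT19 reached the minimum only on day 3 (1.45 FPKM), where it was highest, so little can be read from its ratios. EPCAM and CDH1 were under 1 FPKM in every library. The part of these genes in the DLG values was not tested, and fewer cells of a type and less RNA per cell cannot be told apart in bulk RNA.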

How the data were processed

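Total RNA of hFOB 1.19 cells was depleted of ribosomal RNA by the authors and sequenced with a directional kit, with 1 FPKM column per time point. The labels' wording gives RNase R, which digests linear RNA, to the mRNA libraries and not to those of circRNAs, and its part in the FPKM was not tested. Which of these library types gave the FPKM is not given in the sources used here. In the methods, reads were aligned with TopHat and Bowtie 2, whereas the submitters' processing notes name Bowtie 0.12.2 and a mouse genome build. The program behind the FPKM and the annotation are not given in the sources used here, so no gene coordinates are matched to the table, and promoter windows are those of RefSeq alone.

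The authors deposited FPKM per transcript for mRNAs and lncRNAs, with no read counts. FPKM were summed per symbol, 1 was added, and log2 ratios between libraries were taken (Python 3.11.15, numpy 2.4.6, pandas 2.3.3). As each day has a single library, nothing could be tested, and a fixed limit of 2-fold with a minimum of 1 FPKM in any library was used across all genes and transcripts. Only the calling rule and the isoform distance were checked on made-up values. The simulated differences lay well past the limit, so the check does not cover genes near it, such as DLG1. The 4 FPKM columns of each table were matched to samples by the day in their names. The deposited circRNA table pairs no gene with a circRNA, so the circRNA of DLG1 was not matched and is not analysed here. The authors' 9 comparison tables hold fold changes, p-values and q-values and were not used, and 26 columns of per-sample values in these and the circRNA table were left out.

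Members and lists were chosen with earlier results of these data known. Named were the 5 members, their transcripts reaching 0.5 FPKM in any library, list genes past the limit in 1 direction on all 3 days, SCRIB, LLGL1, LLGL2 and CASK, antisense genes of members, and the 3 genes most like DLG1. The alternatives were another added value, minimum and limit, rescaled libraries, and the leading transcript in place of the sum.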

Additional observations from a re-analysis of the deposited data

Results flagged for a closer look

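DLG1-AS1, the antisense gene that starts head to head with DLG1, gave a signal in the table of long noncoding RNAs, which lies outside the mRNA measurement. It was at 0.449 FPKM on day 3, 0.837 FPKM on day 6 and 0.650 FPKM on day 9, above the 0.227 FPKM of the day 0 control in each case. Of the 3214 lncRNA genes in that table, 1226 (38.1%) were likewise above day 0 in all 3 later libraries. The level stayed under 1 FPKM, with 1 library per time point, and its cause was not tested.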

How the results depend on the processing

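The number of members called rests on how near DLG1 lay to the limit. With 0.1 added in place of 1, DLG1 reached 1.001 on day 6 and was the 1 member called higher. With libraries rescaled to a common median it reached 1.08 on day 6 and was again the 1 member called. With only the leading transcript of each gene it reached 1.17 on day 6 and 1.13 on day 9, which made 1 member called higher on each of these days. A limit of 1.5-fold called 1 member higher on each of days 3, 6 and 9, beside 17.4%, 18% and 18.1% of all genes. With 0.1 added, the list genes called higher came to 11, 11 and 9 on days 3, 6 and 9, and those called lower to 2, 3 and 2. No share of all genes was taken with 0.1 added, with rescaled libraries or with only the leading transcript. The counts at these settings thus have no share to be set beside. Against genes with at least 10 transcripts and a summed FPKM within 2-fold of DLG1, its isoform distance stood at the 41.5 percentile between days 3 and 6 and the 86.0 percentile between days 6 and 9. The cause was not tested. Of the 118 alternative values, 102 were classed as the same, 12 as moved and 4 as stronger. Some of the 102 could not change, since a 4-fold limit, a minimum of 5 FPKM or no minimum could add no call among the members. The same class also held counts of list genes called higher of 11 against 8 on day 6 and 9 against 6 on day 9, with 0.1 added. It held the ratios near 0 of DLG3 on day 3 (0.04 with rescaled libraries) and of DLG5 on day 9 (-0.02 with the leading transcript), which changed sign. Leaving DLG1's leading transcript out of the sum, chosen after seeing the data, changed no call. It could not have added a higher call, because this transcript's ratios to day 0 were above those of the sum on each day. No paired analysis was possible because there was 1 library per day, and for the same reason no library could be left out. The study lists the clean reads of each time point, but whether those libraries gave the FPKM is not clear. Without counts per transcript, depth sets no limit that can be stated, and values under 1 FPKM are the least certain.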
